A study of Homo sapiens with 6 samples.

Results

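Glycolysis and the response to low oxygen were followed through 34 genes, taken by their symbols from the 57341 named genes of the count table, all 34 of which were found. They comprise 3 glucose transporters, 14 enzymes of glycolysis from the hexokinases to pyruvate kinase, 3 enzymes that set the fate of pyruvate, 3 subunits of the hypoxia-inducible factors (HIF), 2 oxygen-sensing prolyl hydroxylases and 9 genes known as HIF targets. RNA was sequenced from 3 replicates of H295R, an established human adrenocortical carcinoma line, and, also in 3 replicates, from H295R-PM-Ptc+, a population obtained by sorting that line on surface Ptch1, the Hedgehog receptor, and expanding the sorted cells. Both populations were grown untreated in the same medium, and nothing in the labels says whether the replicates were separate cultures, so the p-values measure the spread between these libraries only. Between 23264403 and 25813247 fragments per library fell on genes.

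PTCH1, the gene used for the sort, was lower in the H295R-PM-Ptc+-labelled libraries, at 9.70, 13.1 and 13.8 CPM (counts scaled to library size), than in the H295R-labelled ones, at 18.5, 22.0 and 23.4 CPM, which goes against the label. All 6 columns of the normalised table that accompanies the study follow, up to scale, a deposited column with their own replicate code but the name of the opposite group. PTCH1 and that table thus both run against the deposited names. The libraries are still called by their deposited labels, and each direction below would be the opposite under the other naming. All 8 adrenocortical markers examined were expressed, among them NR5A1, STAR and CYP17A1, and their summed level was 1681 to 2138 CPM in the H295R-labelled libraries and 2083 to 2256 CPM in the others, with IGF2 as its largest term (904 ± 90.6 and 1126 ± 82.2 CPM; SD, n = 3 each). Single markers moved with the groups: CYP21A2, the adrenal 21-hydroxylase, passed (12.8 ± 2.19 and 23.5 ± 1.43 CPM, adjusted p = 0.0067), and with the replicate number as a block IGF2 and STAR were also higher and CYP11A1 lower in the H295R-PM-Ptc+-labelled libraries (adjusted p of 0.00115, 3.91e-06 and 0.001). Their part in the results below was not tested. Markers of other cell types were low (summed level at most 1.53 CPM for chromaffin, 0.274 CPM for endothelial and 11.0 CPM for fibroblast genes, the last almost all COL1A1). No leukocyte marker held more than 1 count, although CD68 overlaps a read-through gene and checks little. Almost all chromaffin counts were of CHGA, and the medulla genes DBH and PNMT had none.

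Glycolysis splits glucose into pyruvate in the cytosol, and pyruvate is either reduced to lactate or enters the mitochondria through pyruvate dehydrogenase. HIF transcription factors pair an oxygen-labile alpha subunit (HIF1A or EPAS1) with the stable subunit ARNT, and the prolyl hydroxylases EGLN1 and EGLN3 mark the alpha subunits for breakdown while oxygen is present. Among the known HIF targets are the glucose transporters SLC2A1 and SLC2A3, most glycolytic enzymes, PDK1 and EGLN3 itself. In the adrenal cortex, mitochondria carry out steps of steroid synthesis as well as respiration.

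In the H295R-PM-Ptc+-labelled libraries, EPAS1 was 2.05 times as high and EGLN3 and PDK1 were lower than in the H295R-labelled ones. Of the 34 genes, 33 had enough counts for a test, and these 3 had an adjusted p under 0.05 (edgeR's quasi-likelihood F-test, two-sided, Benjamini-Hochberg adjustment over all 16710 genes tested). That is 1 of 33 higher, where 2.42% of all genes tested were called higher, and 2 of 33 lower, where 1.32% were called lower (3.73% in either direction). The 14 glycolytic enzymes had log2 fold changes between -0.44 and 0.11, and none passed in this fit. Same-numbered replicates of the groups deviated together. With the replicate number as a block 13 of the 33 genes passed, 2 higher and 11 lower. Of all genes 22.5% passed with the block (12.1% higher and 10.4% lower). The 11 included the glycolytic enzymes PFKM, ALDOC, PGK1, ENO1 and PKM. The groups were fully apart in 14 of the 33 genes, 3 higher and 11 lower, against 23.5% of all genes (12.4% and 11.2%). All 3 same-numbered pairs were lower in 20 of the 33 genes and higher in 5, against 25.7% and 26.9% of all genes. The median log2 fold change of the 33 genes was -0.096, against 0.001 over all genes tested.

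**Figure D1:**
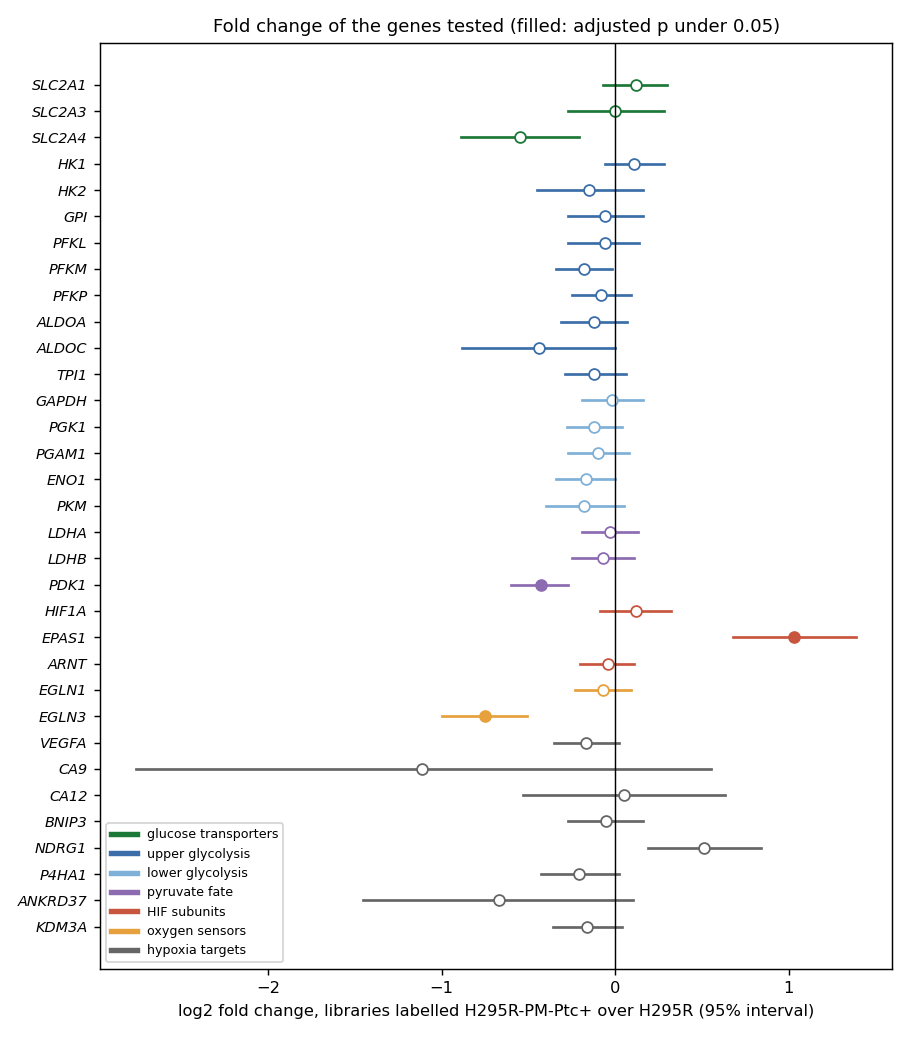
Log2 fold change of the 33 genes tested, libraries labelled H295R-PM-Ptc+ over the H295R-labelled ones, with 95% intervals of the edgeR fit; colours mark the role in the pathway, and filled points have an adjusted p under 0.05. EPAS1 stands to the right at 1.03, EGLN3 at -0.75 and PDK1 at -0.43 to the left, and the glycolytic enzymes cluster between -0.44 and 0.11.

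The stretches upstream of the start of the 3 genes that passed, and of CA9 and ALDOC, whose levels were uneven between libraries, are shown for the core of the HIF binding motif. They hold the 250 bases before the RefSeq transcription start (GRCh38.p14), 5′ to 3′ in the direction of the gene, and capitals mark ACGTG or GCGTG on either strand. A CACGTG run counts as a match on each strand.
EPAS1, chr2:46297157-46297406, plus strand: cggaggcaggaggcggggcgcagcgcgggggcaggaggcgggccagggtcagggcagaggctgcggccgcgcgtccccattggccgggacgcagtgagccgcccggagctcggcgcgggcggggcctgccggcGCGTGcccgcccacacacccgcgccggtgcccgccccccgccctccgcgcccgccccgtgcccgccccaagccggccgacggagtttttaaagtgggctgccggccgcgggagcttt
EGLN3, chr14:33951075-33951324, minus strand: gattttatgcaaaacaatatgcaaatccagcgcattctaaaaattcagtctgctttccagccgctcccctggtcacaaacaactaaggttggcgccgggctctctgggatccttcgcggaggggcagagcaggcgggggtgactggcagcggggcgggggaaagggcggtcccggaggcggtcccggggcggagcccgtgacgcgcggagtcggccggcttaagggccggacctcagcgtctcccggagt
PDK1, chr2:172555123-172555372, plus strand: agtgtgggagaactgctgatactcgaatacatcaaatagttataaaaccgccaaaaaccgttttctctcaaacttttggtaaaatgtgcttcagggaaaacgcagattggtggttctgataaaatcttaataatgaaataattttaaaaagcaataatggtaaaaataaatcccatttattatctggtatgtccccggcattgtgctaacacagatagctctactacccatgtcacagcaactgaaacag
CA9, chr9:35673678-35673927, plus strand: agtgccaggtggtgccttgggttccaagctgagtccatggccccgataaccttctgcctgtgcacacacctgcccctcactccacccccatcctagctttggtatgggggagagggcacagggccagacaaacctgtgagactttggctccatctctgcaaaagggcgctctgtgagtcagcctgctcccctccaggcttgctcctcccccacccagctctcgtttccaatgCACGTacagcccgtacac
ALDOC, chr17:28576896-28577145, minus strand: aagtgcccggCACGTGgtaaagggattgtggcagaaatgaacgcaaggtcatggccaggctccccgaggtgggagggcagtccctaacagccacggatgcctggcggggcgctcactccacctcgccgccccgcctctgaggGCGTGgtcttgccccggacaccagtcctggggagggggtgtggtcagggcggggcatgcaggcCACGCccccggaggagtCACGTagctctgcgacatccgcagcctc
No match stood in the windows of EGLN3 and PDK1, 1 match began 117 bases before the start of EPAS1 and 1 began 18 bases before that of CA9, and ALDOC had 5 matches. Sequences were found for 30 of the 34 genes (all but SLC2A3, SLC2A4, VEGFA and NDRG1), of which 19 (63.3%) held a match, against 43.1% of all 27305 promoters and 56.9% of the promoters of genes tested. ACGTG alone stood in 12 of the 30 (40.0%), against 18.7% and 23.2%. These are counts of letters in a short window, not of binding sites. The median GC content was 69.0% in the 30 windows, 58.0% in all promoters and 64.8% in those of genes tested. Its part in the shares with a match was not tested. The counted exons of EGLN3, on the minus strand, reach to position 34462774, far upstream of its window, so its counts may include transcripts with other starts.

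EPAS1, which encodes the HIF-2 alpha subunit, lies on chromosome 2 from 46293667 to 46386703 (hg38, exonic counts) and overlaps no other exon. It had 7.03, 7.05 and 7.08 CPM in the H295R-labelled libraries and 11.2, 17.4 and 14.7 CPM in the H295R-PM-Ptc+-labelled ones. The first group (168, 179 and 175 counts) was almost constant in CPM. The second (287, 433 and 341 counts) spread over a wide range, with its lowest library still well above the first group. This difference in spread was not tested. The log2 fold change was 1.03 (standard error, SE, 0.159, adjusted p = 0.00903), a 2.05-fold higher level. Without H295R replicate 3 the fold change was the same, but the adjusted p was 0.0544. HIF1A, the alpha subunit of HIF-1, was far more abundant per length, at 130 ± 13.0 and 140 ± 4.44 CPM per kb of exon against 0.966 ± 0.00334 and 1.98 ± 0.425 for EPAS1 (mean ± SD, n = 3, H295R first). HIF1A had 590, 706 and 706 CPM in the H295R-labelled libraries and 706, 749 and 714 CPM in the others, so that replicate 1 of H295R was the low library, and its log2 fold change of 0.12 did not pass (95% interval -0.09 to 0.32). ARNT lay between 72.2 and 77.7 CPM in all libraries, with a log2 fold change of -0.04 (95% interval -0.20 to 0.11).

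EGLN3 and EGLN1 encode hydroxylases that act on the HIF alpha subunits. EGLN3, on chromosome 14 from 33924231 to 34462774, had 11.8, 11.0 and 12.7 CPM in the H295R-labelled libraries and 7.32, 7.04 and 6.70 CPM in the H295R-PM-Ptc+-labelled ones. All libraries of the second group were below all of the first. It fell by 0.75 on the log2 scale (SE 0.109, adjusted p = 0.00694) and passed in all 6 fits that left out a library, where the adjusted p was at most 0.0441. EGLN1, the more abundant of the pair, had 69.1, 71.0 and 75.1 CPM against 66.2, 68.9 and 70.2 CPM, and the groups overlapped (log2 fold change -0.07, 95% interval -0.23 to 0.09). EGLN3 therefore made up 14.0% ± 0.66 of the summed per-length level of the pair in the H295R-labelled libraries and 9.20% ± 0.61 in the others (SD, n = 3 each). That difference had an exact permutation p of 0.1, the smallest that 3 against 3 can give, and 0.183 after adjustment over the 11 shares computed.

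PDK1, a kinase that inhibits pyruvate dehydrogenase, lies on chromosome 2 from 172555373 to 172608669. Its libraries had 60.4, 66.3 and 64.2 CPM where labelled H295R and 46.4, 46.1 and 49.0 CPM where labelled H295R-PM-Ptc+. The groups were well apart, and PDK1 fell by 0.43 on the log2 scale (SE 0.0727, adjusted p = 0.0142). The call was sensitive to single libraries, since leaving out replicate 2 or 3 of H295R gave an adjusted p of 0.0608 or 0.0699, and leaving out replicate 2 or 3 of H295R-PM-Ptc+ gave 0.0824 or 0.0545. With the replicate block it was 2.49e-05. LDHA and LDHB, the subunits of lactate dehydrogenase, did not pass. LDHB was the second most abundant of the 34 genes per length, at 678 ± 21.2 and 647 ± 33.3 CPM per kb, with a log2 fold change of -0.07 (95% interval -0.25 to 0.11). LDHA stood at 404, 415 and 408 CPM against 388, 407 and 406 CPM, a log2 fold change of -0.03 (95% interval -0.19 to 0.13). Within a library LDHA made up 8.36% to 9.45% of the LDHA and LDHB level per length.

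**Figure D2:**
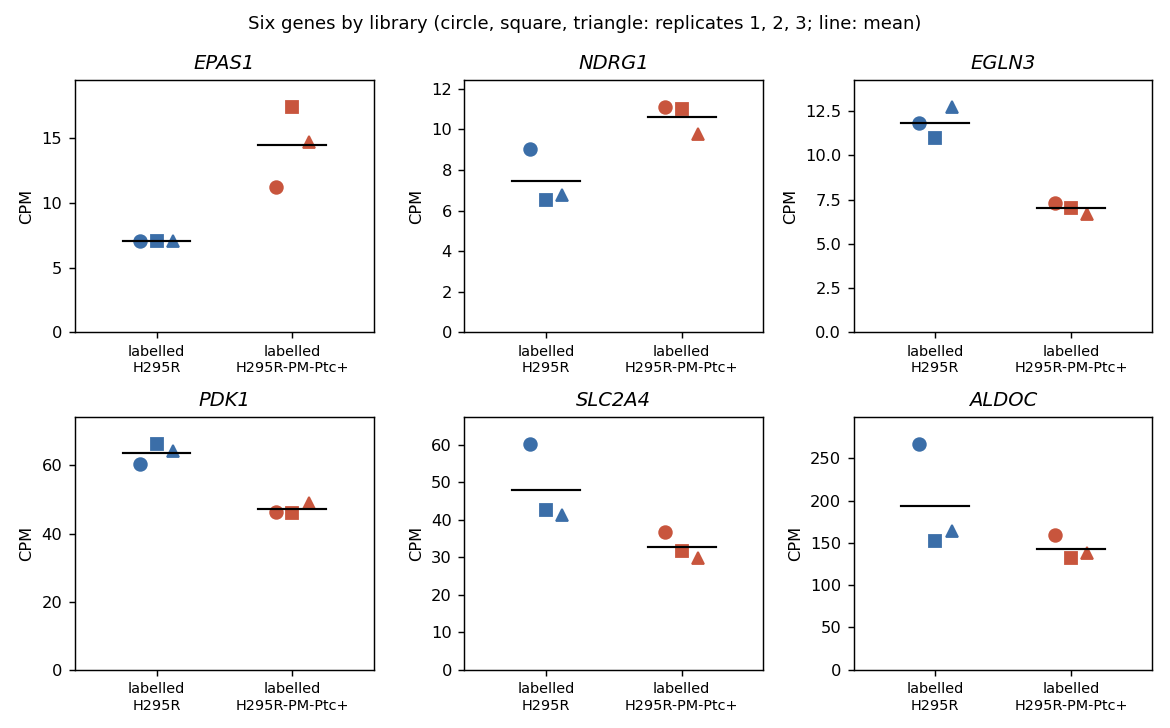
CPM of EPAS1, NDRG1, EGLN3, PDK1, SLC2A4 and ALDOC in each library (circle, square and triangle for replicates 1, 2 and 3), with the mean of each group as a line and axes starting at 0. The groups are apart in all but ALDOC, in which replicate 1 labelled H295R stands alone at 267 CPM.

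Glucose enters through SLC2A1, SLC2A3 and SLC2A4. SLC2A4, the insulin-responsive transporter best known from muscle and fat, had 60.2, 42.6 and 41.3 CPM in the H295R-labelled libraries and 36.8, 31.8 and 29.9 CPM in the others. The groups did not overlap, replicate 1 was the highest library of each group, and the log2 fold change was -0.55 (SE 0.149, adjusted p = 0.0870). With the replicate block the adjusted p was 1.83e-05 and with DESeq2 0.0195. Without H295R replicate 1 the log2 fold change was -0.35 in a fit that did not pass. SLC2A1, the widespread basal transporter and the most abundant of these, had 137, 142 and 156 CPM against 150, 153 and 167 CPM, with a log2 fold change of 0.12 (adjusted p = 0.540). SLC2A3, a high-affinity transporter, had 38.4, 48.5 and 50.9 CPM against 40.8, 49.9 and 47.7 CPM, interleaved between the groups (log2 fold change 0.00, 95% interval -0.27 to 0.28, adjusted p = 0.991), and its near-identical paralog SLC2A14, with 16.4 and 13.6 CPM, may share its reads. By share of the 3 transporters per length, SLC2A1 had 64.0% ± 3.1 and 70.5% ± 1.7 and SLC2A4 22.1% ± 5.0 and 15.4% ± 2.1 (SD, n = 3 each, H295R first; exact permutation p = 0.1, adjusted p = 0.183 each).

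None of the 14 enzymes from hexokinase to pyruvate kinase had an adjusted p under 0.05 with edgeR without the block, 1 (PFKM) had an unadjusted p under 0.05, and none passed with DESeq2 or limma-voom, while ALDOC passed with no filter on low counts. Of the 14, 13 had a log2 fold change below 0, where 49.8% of all genes tested did, with a median of -0.118. With the replicate block 5 passed, all lower in the H295R-PM-Ptc+-labelled libraries, namely PFKM, ALDOC, PGK1, ENO1 and PKM, where 10.4% of all genes were called lower. With the block in DESeq2 only PFKM, ENO1 and PKM of these passed, and the adjusted p was 0.137 for ALDOC and 0.0925 for PGK1. As a share of all counts the 14 enzymes took 1.11% ± 0.04 in the H295R-labelled libraries and 1.04% ± 0.025 in the others (SD, n = 3 each). Whether the cells held fewer transcripts or fewer cells expressed them cannot be told apart in bulk RNA.

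In the upper part of the pathway, HK1, the ubiquitous hexokinase, had 106, 114 and 115 CPM in the H295R-labelled libraries and 116, 124 and 123 CPM in the others, just without overlap (log2 fold change 0.11, adjusted p = 0.505). HK2, the hexokinase known as inducible, was much lower, with 17.5, 19.3 and 20.8 CPM against 14.0, 19.2 and 18.8 CPM and overlapping groups (log2 fold change -0.15, adjusted p = 0.653). GPI, which converts glucose phosphate to fructose phosphate, had 706, 778 and 852 CPM against 695, 770 and 782 CPM, with replicate 1 lowest in both groups (log2 fold change -0.06, adjusted p = 0.833). PFKM, the main phosphofructokinase gene here at 55.5% ± 0.72 and 53.6% ± 1.1 of the 3 PFK genes per length, had 242, 219 and 229 CPM against 205, 199 and 205 CPM. Its groups did not overlap, at a log2 fold change of -0.18 (SE 0.0723, adjusted p = 0.246, with the block 0.00679). PFKL and PFKP, the liver and platelet forms, had log2 fold changes of -0.06 and -0.08 with overlapping groups.

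The aldolases differed in how steady they were. ALDOA had 845, 842 and 962 CPM against 793, 810 and 833 CPM, without overlap (log2 fold change -0.12, adjusted p = 0.520, with the block 0.0700). ALDOC, the brain-type aldolase, had 267, 152 and 164 CPM in the H295R-labelled libraries and 160, 133 and 138 CPM in the others. The first of these libraries was far above the others of its group, and the remaining values of the groups overlapped. The log2 fold change of ALDOC was -0.44 (SE 0.195, adjusted p = 0.293) and -0.14 without H295R replicate 1, while the block gave an adjusted p of 0.00112. TPI1, which interconverts the triose phosphates, had 1296, 1218 and 1304 CPM against 1211, 1122 and 1191 CPM, apart by a narrow margin (log2 fold change -0.12, adjusted p = 0.508, with the block 0.0620).

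In the lower part, GAPDH was the most abundant of the 34 genes per length, at 1128 ± 35.9 and 1114 ± 26.1 CPM per kb. Its libraries had 3387, 3244 and 3454 CPM against 3370, 3230 and 3358 CPM, interleaved between the groups, and the 95% interval of its log2 fold change was -0.19 to 0.16. PGK1, the first ATP-forming enzyme of the pathway, was among the steadiest, with 599, 614 and 612 CPM against 559, 550 and 570 CPM. These groups were apart at a log2 fold change of -0.12 (SE 0.0698, adjusted p = 0.432), which passed narrowly with the block (0.0483). ENO1, an enolase, had 435, 452 and 484 CPM against 401, 405 and 414 CPM, also apart (log2 fold change -0.17, standard error 0.0748, adjusted p = 0.295, with the block 0.0101). PKM, the pyruvate kinase gene whose splice forms these gene counts do not separate, had 2567, 2790 and 2994 CPM against 2213, 2507 and 2655 CPM. Replicate 1 was the lowest PKM library of both groups, the groups overlapped, and the log2 fold change was -0.18 (SE 0.0996, adjusted p = 0.413, with the block 0.00714). For PGAM1 the groups overlapped, at -0.10 on the log2 scale (adjusted p = 0.586), and its near-identical copy PGAM4 drew a mean of 26.2 CPM in the H295R-labelled libraries.

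**Figure D3:**
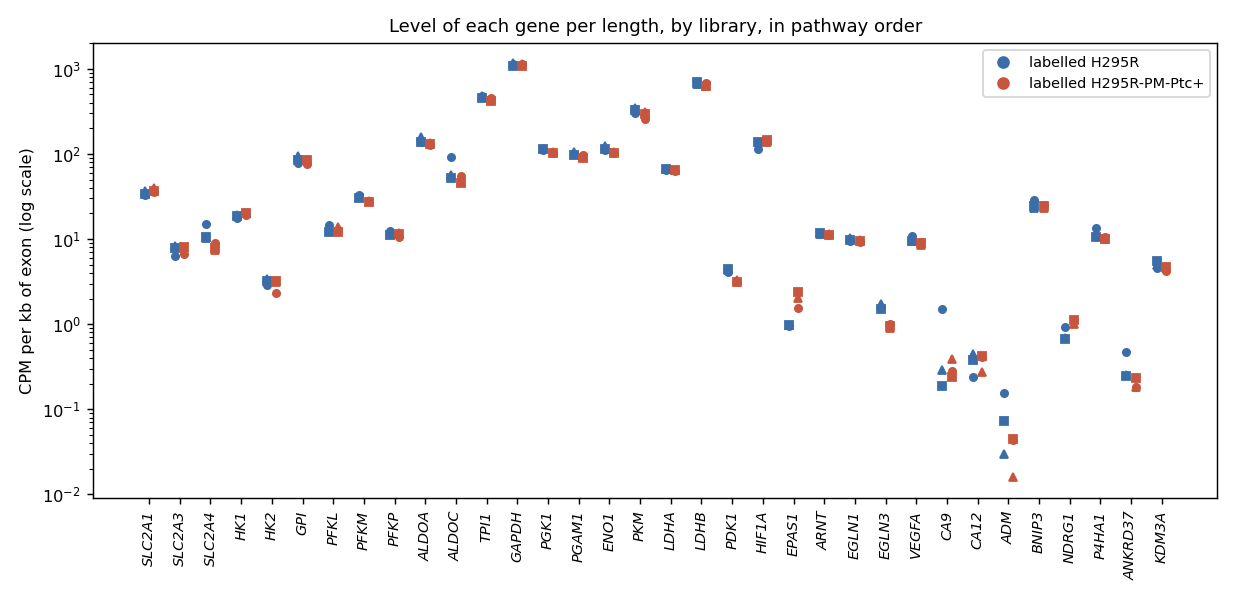
Level of each of the 34 genes in CPM per kb of exon on a log axis, in pathway order, with one point per library (circle, square and triangle for replicates 1, 2 and 3). GAPDH is highest and ADM lowest, and the groups lie close together for the glycolytic enzymes.

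**Figure D4:**
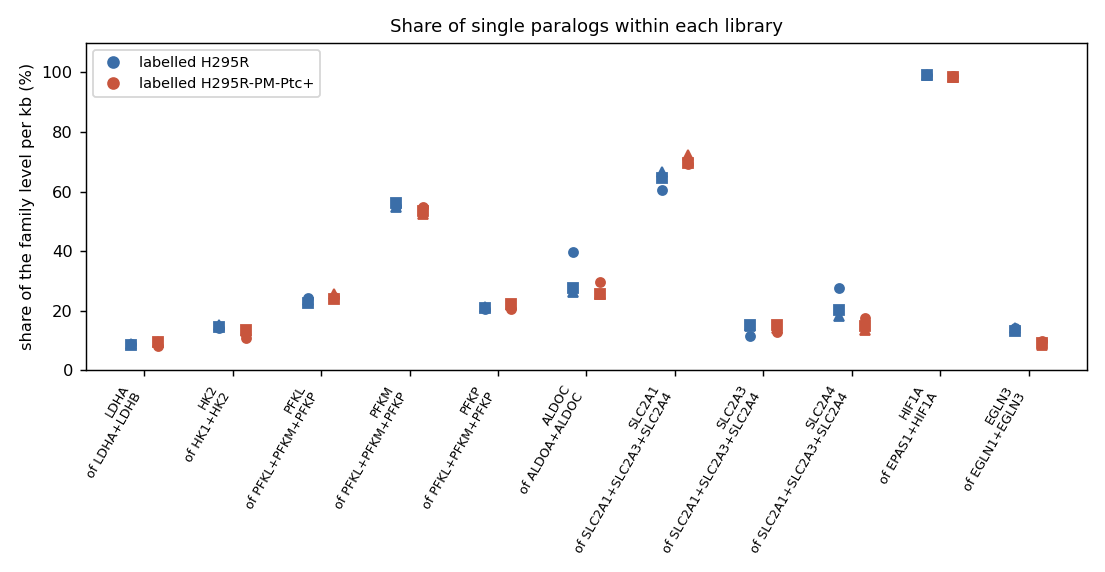
Share of single paralogs in the summed level per kb of their family, in percent, with one point per library and the groups in 2 colours (circle, square and triangle for replicates 1, 2 and 3). HIF1A makes up 98.4% to 99.3% of HIF1A and EPAS1, and the EGLN3 share is lower in all libraries labelled H295R-PM-Ptc+.

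Of the 9 HIF target genes, none had an adjusted p under 0.05 in the edgeR fit without the block, 1 (NDRG1) had an unadjusted p under 0.05, NDRG1 passed with DESeq2 and none passed with limma-voom. NDRG1, a stress- and differentiation-responsive gene, had 9.04, 6.54 and 6.76 CPM in the H295R-labelled libraries and 11.1, 11.0 and 9.76 CPM in the others. Its groups were apart, with replicate 1 of H295R nearest to the other group, and the log2 fold change was 0.51 (SE 0.145, adjusted p = 0.0965). It passed with DESeq2 (0.0480), with the block (0.00219) and without H295R replicate 1 (0.0134, log2 fold change 0.68). VEGFA, the angiogenic growth factor, had 156, 139 and 135 CPM against 133, 129 and 122 CPM, apart but narrowly (log2 fold change -0.17, standard error 0.0822, adjusted p = 0.349, with the block 0.0152). P4HA1, a collagen prolyl hydroxylase, had 42.0, 33.0 and 35.0 CPM against 32.5, 31.3 and 31.3 CPM, again apart (log2 fold change -0.21, adjusted p = 0.326, with the block 0.0342). KDM3A, a histone demethylase, overlapped between the groups, with 62.0, 73.9 and 66.8 CPM against 56.6, 63.7 and 61.0 CPM (log2 fold change -0.16, adjusted p = 0.404, with the block 0.0299). With the block in DESeq2, VEGFA, P4HA1 and KDM3A did not pass (adjusted p of 0.0632, 0.193 and 0.17), and NDRG1 did (0.023). BNIP3, a mitophagy receptor, had 138, 117 and 111 CPM against 123, 118 and 113 CPM, interleaved (log2 fold change -0.05, adjusted p = 0.846).

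The remaining targets were at low counts. CA9, a carbonic anhydrase widely used as a hypoxia marker, had 60 counts in H295R replicate 1 and 8 and 12 in replicates 2 and 3, against 12, 10 and 15 in the H295R-PM-Ptc+-labelled libraries. A single library thus held most CA9 counts, and the log2 fold change of -1.11 (95% interval -2.76 to 0.55, adjusted p = 0.499) became 0.33 without it. Exons of ARHGEF39 on the opposite strand cover 38.5% of the exonic bases of CA9, and ARHGEF39 had 1056 counts in that library and 909 to 1149 in the others. ANKRD37, an ankyrin-repeat gene, had 29, 16 and 16 counts against 12, 15 and 11 (log2 fold change -0.67, adjusted p = 0.359), and UFSP2 on the opposite strand covers 35.2% of its exonic bases. CA12 held 42 to 81 counts with no separation of the groups (adjusted p = 0.953). ADM, adrenomedullin, had 1 to 10 counts per library and was not tested.

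The labels number the replicates 1 to 3 in both groups with shared codes (1801, 3001 and 3101) whose meaning they do not give, so the spread between numbers was tested with the group in the model. Of the 33 genes, 10 differed between replicate numbers at an adjusted p under 0.05, beside 26% of all genes tested, so these genes did so about as often as others. In ALDOC replicate 1 exceeded the mean of replicates 2 and 3 by 1.69-fold in the H295R-labelled libraries and 1.18-fold in the others (adjusted p = 4.95e-04). SLC2A4 showed 1.44-fold and 1.19-fold in the same way (adjusted p = 0.00108), and BNIP3 1.21-fold and 1.07-fold (adjusted p = 0.0287). SLC2A3 was lower in replicate 1 of both groups, at 0.773 and 0.836 of the other replicates (adjusted p = 0.00351), as was PKM at 0.888 and 0.857 (adjusted p = 0.00894). HK2, GPI, SLC2A1 and KDM3A were also lower in replicate 1 of both groups and passed (adjusted p between 0.0151 and 0.0452), while CA9 passed through 1 library (adjusted p = 0.0234).

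H295R replicate 1 was the highest library of its group in 6 of the 8 HIF targets tested (VEGFA, CA9, BNIP3, NDRG1, P4HA1 and ANKRD37), with a median ratio to the other replicates of 1.22. It was the highest of its group in 41.5% of all genes tested, where the median ratio was 1.00. On the related lists it was highest in 16 of 29 other hypoxia targets (55.2%, median ratio 1.08). The same held for 8 of 12 other glycolytic isozymes and regulators (66.7%) and 5 of 7 other hexose transporters (71.4%). Lower shares were seen in glycogen genes (30%), pentose phosphate genes (28.6%) and pyruvate dehydrogenase and its kinases (30%). Other HIF regulators (38.5%), lactate and pyruvate transporters (40%) and the 33 genes as a whole (33.3%) were also below 41.5%. Among the 8 targets, H295R-PM-Ptc+ replicate 1 was the highest of its group in 4, at a median ratio of 1.05. Over all genes tested it was highest in 41.4%, at a median ratio of 1.01. It was highest in 13 of the 29 other hypoxia targets (44.8%), 10 of the 12 isozymes and regulators (83.3%) and 5 of the 7 transporters (71.4%). In the last 2 lists a high replicate 1 was thus seen in both groups. The 8 genes were looked at in this way after their values were seen, and the difference between the groups was not tested. With H295R replicate 1 left out, the log2 fold changes of VEGFA, P4HA1 and ANKRD37 were -0.10, -0.10 and -0.305, against -0.17, -0.21 and -0.67 with it. Those of CA9 and BNIP3 turned from -1.11 and -0.05 to 0.33 and 0.04, and that of NDRG1 grew from 0.51 to 0.68 and passed.

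**Figure D5:**
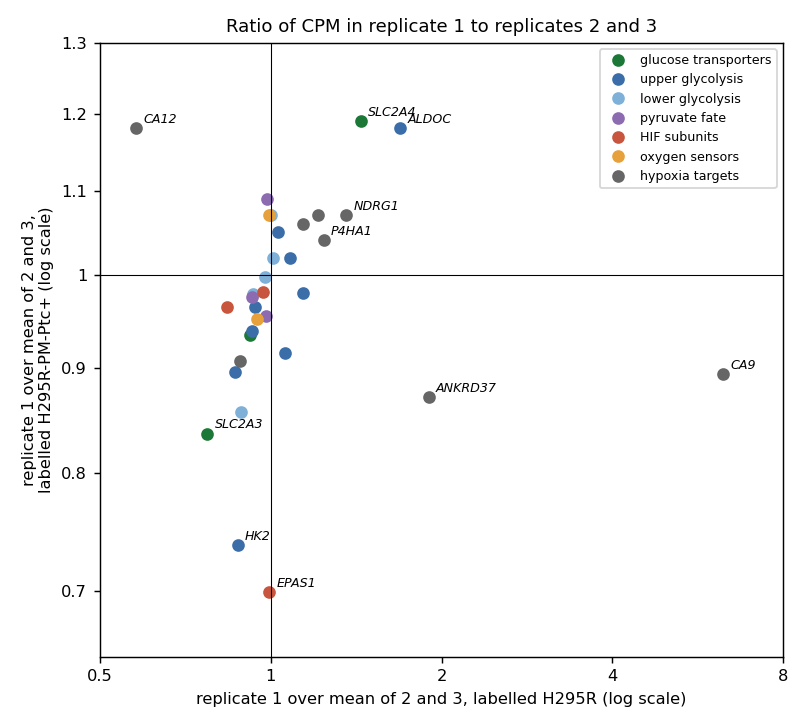
Ratio of CPM in replicate 1 to the mean of replicates 2 and 3 for the 33 genes tested, in the H295R-labelled libraries (horizontal) and H295R-PM-Ptc+ (vertical), on log axes. SLC2A4 and ALDOC lie above 1 on both axes, SLC2A3 and HK2 below 1 on both, and CA9 (6.27 and 0.894) and ANKRD37 (1.90 and 0.871) above 1 only where labelled H295R.

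Beyond these 34 genes, lists of related genes held 117 symbols, of which 115 were in the table and 93 were tested. Only 2 passed with edgeR (3.73% of all genes did). Both were higher in the H295R-PM-Ptc+-labelled libraries and came from the list of other hypoxia targets. Of these, NOS3, the endothelial nitric oxide synthase, rose from 0.737 ± 0.413 to 2.72 ± 0.560 CPM (log2 fold change 1.89, adjusted p = 0.0187; SD, n = 3 each). At an unadjusted p under 0.05 in edgeR, 10 were higher and 13 lower, and the share of all genes at that threshold was not computed. DESeq2 called 4 higher and 4 lower, beside 911 genes in all, and limma-voom 2 higher, beside 608 in all. With the replicate block edgeR called 19 higher and 15 lower, where 12.1% of all genes were called higher and 10.4% lower. The block in DESeq2 called 8 higher and 8 lower on the same lists, beside 979 higher and 801 lower over all genes. By list, to be read against the same shares, the block in edgeR called 10 higher and 6 lower among 29 other hypoxia targets, 4 higher and 1 lower among 13 HIF regulators, 1 higher and 2 lower among 10 genes of pyruvate dehydrogenase and its kinases, 3 lower among 12 glycolytic isozymes and regulators, 2 higher and 1 lower among 10 glycogen genes, 1 higher among 7 pentose phosphate genes, 1 lower among 5 lactate and pyruvate transporters and 1 in each direction among 7 other hexose transporters.

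The remaining paralogs of PDK1 and of the EGLN pair, taken from these lists after their values were seen, did not pass. PDK4 had 1792 ± 104 CPM in the H295R-labelled libraries and 1446 ± 35.9 CPM in the others (SD, n = 3 each), without overlap and with a log2 fold change of -0.31 (adjusted p = 0.0736, with the block 9.84e-05). PDK2 and PDK3 overlapped between the groups, at log2 fold changes of 0.09 (adjusted p = 0.661, with the block 0.248) and -0.15 (adjusted p = 0.432, with the block 0.108). EGLN2 had 7.74 ± 0.304 and 9.48 ± 1.52 CPM, without overlap and with a log2 fold change of 0.29, opposite in sign to EGLN3 (adjusted p = 0.313, with the block 0.056).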

How the data were processed

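The authors sequenced paired reads from stranded libraries, aligned them to hg38 with STAR 2.4.0a and assigned fragments to gene names of an Ensembl annotation by featureCounts (Subread 1.5.0-p3 per the labels), by strand and with multiply mapped reads at their primary position. The stated strand setting is opposite to the usual one for this kit, but GAPDH held 492880 counts and its antisense partner 447, so the counts follow the genes' own strand. The labels name a total RNA kit and the methods an mRNA kit. The deposited table holds these raw counts, one column per library. A row without a gene name (spike-in sequences) held 0 counts and was left out. The comparisons that the supplementary tables of the study hold were not used.

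The group test used edgeR 4.0.16 under R 4.3.3 (genes kept by filterByExpr, TMM scaling, glmQLFit and glmQLFTest, group as the only term, Benjamini-Hochberg adjustment), on which CPM and 95% intervals also rest; the steps were tested on simulated data. CPM per kb divides by the exon length in the table. Same-numbered replicates pair the groups, since across genes their deviations from the mean of their group had correlations of 0.594, 0.405 and 0.325, and other pairs had -0.443 to 0.211. The labels do not say why, and a second fit took the number as a block. Replicate numbers were tested in that fit (F-test of both terms), and shares by exact permutation (two-sided). Replicates differed by more than counting error (chi-square per gene 5.97 to 28.3). DESeq2 1.42.0, limma-voom (limma 3.58.1), RLE size factors, other filters, added pseudogene counts and leaving out each library were alternatives.

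Genes with near-identical copies are uncertain, since reads may be split: rows named as their pseudogenes held 8.18% of the parent count for BNIP3, 2.41% for TPI1, 0.317% for GAPDH and at most 0.544% for the others. Exons of 17 of the 34 genes overlap no other gene on either strand. The genes and lists were chosen with earlier results of these data known. Full values go to genes that passed a test with or without the block, whose groups did not overlap or that differed between replicate numbers; of the wider lists, those past the threshold without the block are named, except 1 that is not reported here, and calls with the block are given as counts.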

Additional observations from a re-analysis of the deposited data

How the results depend on the processing

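Relative log expression size factors and added pseudogene counts changed no call among the 33 genes, and the 14 glycolytic enzymes had 12 or 13 log2 fold changes below 0 in each fit. Of 624 genes called in all, the count became 1111 with no filter on low counts, 3758 with the replicate block, 3806 with the block and relative log expression factors and 1780 with the block in DESeq2, and lay between 219 (without H295R replicate 3) and 810 (without H295R replicate 1) with a library left out. Leaving out H295R replicate 2 gave 278, and leaving out replicate 2 or 3 of H295R-PM-Ptc+ gave 247 or 257. Of the pathway genes, 1 was called higher and 2 lower; with no filter 2 and 4, with DESeq2 2 and 3 (SLC2A4 was added), with the block 2 and 11, with the block and relative log expression factors 2 and 11, and with the block in DESeq2 2 and 6. With a library left out, 0 to 2 were called higher and 1 or 2 lower. The 0 arose without H295R replicate 3, where 2 were higher at an unadjusted p under 0.05 in edgeR. With the block and a replicate number left out, 2 were higher each time and 14, 10 and 5 lower without numbers 1, 2 and 3. Over all genes those fits called 2245, 1531 and 1157 higher and 1945, 1299 and 990 lower, so the calls fell there too. DESeq2 without the block called 911 genes in all. For replicate numbers, 4341 genes and 10 of the 33 passed; DESeq2 gave 2503 and 4, fits without a library 3056 to 4998 and 4 to 13, with the 4 arising for replicate 3 of either group.

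With a library left out, signs turned for values near 0 or at low counts. The log2 fold change ranged from -0.110 (without H295R replicate 1) to 0.0796 for SLC2A3, which was also below 0 at -0.0554 and -0.0282 without replicates 2 and 3 of H295R-PM-Ptc+. CA9 ranged from -1.55 to 0.33 and BNIP3 from -0.127 to 0.0438, both above 0 only without H295R replicate 1. CA12 ranged from -0.164 (without H295R replicate 1) to 0.234, GPI from -0.123 to 0.00302 (without H295R replicate 3) and GAPDH from -0.0438 to 0.000844 (without H295R-PM-Ptc+ replicate 2). The difference in the ALDOC share of the aldolases ranged from -6.66 to 0.102 percentage points (without H295R replicate 1) and that in the SLC2A3 share of the transporters from -0.853 (without H295R replicate 1) to 0.899. The replicate block changed no sign of a log2 fold change; for the shares, the smallest exact p that 3 pairs allow is 0.25. The cause of these changes was not tested. CA9, CA12, ANKRD37 and ADM had at most 81 counts per library, so counting error is a larger part of their values.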
